A study of Homo sapiens with 6 samples.

Results

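Kynureninase, the enzyme encoded by KYNU, and the other enzymes that break down tryptophan through kynurenine were read on 6 arrays of MCF10A, an established human line of breast epithelium that does not form tumours. The 8 genes were IDO1, TDO2, AFMID, KYNU, KMO, AADAT, HAAO and QPRT. They were read at every probe set whose only annotated symbol was 1 of these names, which gave 15 of the 54613 probe sets that are not the manufacturer's controls, and 8 of 19775 genes. On 3 arrays the RNA came from MCF10A cells with C/EBPbeta-2, a form of the transcription factor C/EBP-beta. On the other 3 it came from cells titled only MCF10A, called control. The titles do not say whether the control cells make C/EBPbeta-2 of their own. Both groups are the same cell line in the same medium with horse serum, insulin, hydrocortisone, epidermal growth factor and cholera toxin, and the labels give no further treatment. The sources used here do not say how C/EBPbeta-2 entered the cells, or whether either group is a single clone. The labels name biological replicates but not what set them apart, so their spread may be technical.

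Most of the tryptophan that the body does not build into protein is broken down through kynurenine. IDO1 or TDO2 opens the indole ring, AFMID removes the formyl group, and the kynurenine that results is a branch point. KMO hydroxylates it toward quinolinic acid and NAD, AADAT and related transaminases turn it into kynurenic acid, and KYNU cleaves kynurenine to anthranilic acid and 3-hydroxykynurenine to 3-hydroxyanthranilic acid. HAAO and QPRT then complete the route to the NAD precursor. The liver holds the whole route, while many other cells express only parts of it. IDO1 is a classical target of interferon-gamma.

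The genes were selected on this same contrast: KYNU was chosen by its fall there, and the others by their place in the route around it. Its values are therefore given as a description, and its call supports nothing by itself. Differences are log2 intensity with C/EBPbeta-2 minus control, from a limma fit over all probe sets, and a gene or probe set is called at an adjusted p under 0.05. A gene with several probe sets is counted at its brightest, the probe set with the highest mean over the 6 arrays.

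KYNU was lower on every C/EBPbeta-2 array than on every control array at 3 of its 4 probe sets, by 4.55-fold to 7.11-fold. The brightest, 217388_s_at, read 10.72, 10.57 and 10.43 (log2 intensity) on control replicates 1, 2 and 3 and 8.11, 8.15 and 7.05 on C/EBPbeta-2 replicates 1, 2 and 3. The groups did not overlap, and the gap between the lowest control array and the highest C/EBPbeta-2 array was 2.28. The means were 10.57 ± 0.14 and 7.77 ± 0.62 (SD, n = 3), a log2 difference of -2.80 (SE 0.32), or 6.97-fold lower. In these RNA pools, fewer cells that express a gene and less of its RNA per cell cannot be told apart.

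A second probe set, 210663_s_at, gave nearly the same picture. It read 10.22, 9.93 and 9.68 on control replicates 1 to 3 and 7.32, 7.58 and 6.45 on C/EBPbeta-2 replicates 1 to 3, a log2 difference of -2.83 (SE 0.32). Again no array of a group reached into the other, with a gap of 2.10. The third, 204385_at, read 9.37, 9.33 and 8.73 on the control arrays and 7.39, 7.10 and 6.39 on the C/EBPbeta-2 arrays, a log2 difference of -2.18 (SE 0.31). Its gap of 1.34 was narrower than that of the other two. Within each group replicate 3 was the lowest array at all 3 of these probe sets, while the order of C/EBPbeta-2 replicates 1 and 2 differed between them. They measure the same RNA samples and are not replicates of the comparison.

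The fourth probe set, 210662_at, did not separate the groups. It read 3.74, 2.68 and 2.94 on the control arrays and 2.69, 2.91 and 2.47 on the C/EBPbeta-2 arrays, a log2 difference of -0.43 (SE 0.30). All 6 values lay below the medians of their arrays, which ran from 4.46 to 4.56, and no detection calls were used here, so whether it was above background was not tested. The annotation gives the same source sequence for 210662_at as for 210663_s_at, and the position of the probes on the KYNU transcripts was not used here. Without control replicate 1 its difference was -0.12.

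**Figure D1:**
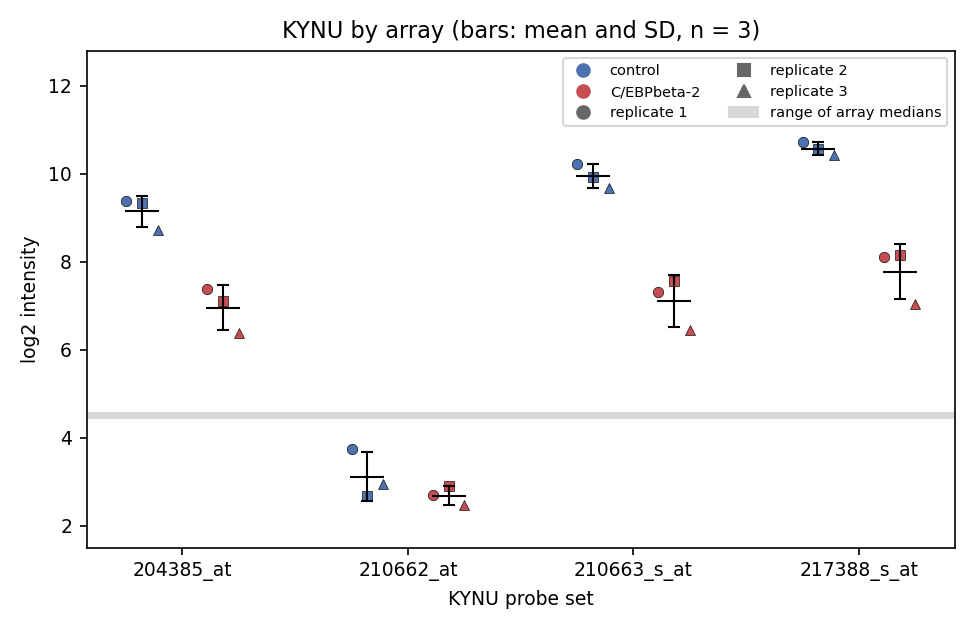
Log2 intensity of the 4 KYNU probe sets on each array, with control in blue, C/EBPbeta-2 in red, marker shape for the replicate, and bars for the mean and SD of 3 arrays. At 217388_s_at, 210663_s_at and 204385_at the red points lie below all blue points, with gaps of 2.28, 2.10 and 1.34, while 210662_at lies below the grey band of array medians in both groups.

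Counted over genes, limma called 1 of the 8 members, KYNU, which fell, where 0.167% of all 19775 genes were called in that direction. Counted over probe sets it called 0 of the 15, where 0.0659% of all probe sets were called in either direction and 2175 had an unadjusted p under 0.05. KYNU thus passed the threshold only when the adjustment ran over genes. In size it had the 36th lowest difference of the 19775 genes. Leaving out any array but C/EBPbeta-2 replicate 3 ended the call, while the difference ranged from -2.99 to -2.44 over these 6 fits. Of 15 alternative fits KYNU was called in 8. The difference was negative in all 15, which supports nothing, as KYNU was chosen by its fall and its groups did not overlap.

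KYNU was compared within the levels of a technical measure that split both groups. The poly-A spike-in RNA, added during labelling, was low on C/EBPbeta-2 replicate 2 (3.73) and control replicate 1 (3.86) and lay between 6.75 and 7.65 on the other 4 arrays. KYNU differed by -2.56 between the 2 arrays of low level and by -2.92 between the others. The sign within each level was fixed beforehand, as the groups did not overlap at this probe set and any split holding both groups gives a fall. The low level also holds 1 array of each group. These 2 differences are therefore a description and show nothing about the part of the spike-in level. The same 2 arrays of low level also stood apart in other technical measures (log2). Their 3' minus 5' control signal of ACTB was 1.32 and 1.48, against -0.04 to 0.64 on the others. Their 18S ribosomal RNA signal was 5.62 and 8.05, against 10.09 to 12.19. On these 2 arrays the measures cannot be told apart from a low spike-in level. The other 4 arrays differed in 18S signal too, within both groups. With C/EBPbeta-2 it was 12.19 (replicate 1) and 10.09 (replicate 3), and in the controls 12.17 (replicate 2) and 10.33 (replicate 3). Their spike-in level ran the other way, 6.75 and 7.65 with C/EBPbeta-2, 6.81 and 6.91 in the controls. With the spike-in level as covariate the KYNU difference was -2.77 (SE 0.27). The part of the ACTB and 18S signals in the KYNU difference was not tested.

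The start of KYNU lies on chromosome 2, and its RefSeq gene model runs from 142877664 to 143055833 on the plus strand of GRCh38.p14. The 250 bases before that start (chr2:142877414-142877663) are shown because the study varies a transcription factor, with capitals on the letters that match the motif searched.
KYNU: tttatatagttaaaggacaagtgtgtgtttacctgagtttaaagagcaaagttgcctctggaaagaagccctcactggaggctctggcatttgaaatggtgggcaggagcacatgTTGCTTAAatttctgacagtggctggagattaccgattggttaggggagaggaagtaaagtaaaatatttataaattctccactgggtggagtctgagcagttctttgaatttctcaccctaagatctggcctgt
C/EBP factors bind DNA as dimers, at sites close to TTGCGCAA. That motif in full was not in this window on either strand, and 0.13% of 35116 RefSeq windows of this length hold it. A looser form that leaves 2 bases free, TTNNGCAA, was found once, on the minus strand at positions -135 to -128 from the start. Every TTGCGCAA also counts as a TTNNGCAA, and 9.05% of all windows hold the looser form. Of these windows 10 belonged to 7 of the 8 genes, 3 of them to AADAT and 2 to QPRT, and IDO1 had none. The looser form was in 1 of the 10, that of KYNU, which is near the 9.05% of all windows. A match of letters is not a binding site, and no binding was measured here.

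IDO1, TDO2 and AFMID, which act upstream of KYNU, did not separate the groups. For IDO1, the interferon-inducible dioxygenase that opens the tryptophan ring, probe set 210029_at read 5.01, 4.03 and 4.06 on control replicates 1 to 3 and 4.67, 4.48 and 4.48 on C/EBPbeta-2 replicates 1 to 3. The control arrays lay on both sides of the C/EBPbeta-2 arrays, and the log2 difference was 0.17 (SE 0.29). Its sign changed with the spike-in level, -0.54 between the 2 arrays of low level and 0.53 between the others. With 1 array left out it ranged from 0.0047 (without control replicate 2) to 0.49 (without control replicate 1).

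TDO2, the dioxygenase best known from liver, was near the bottom of the intensity range on all arrays. Its probe set 231702_at read 2.74, 2.86 and 2.77 on the control arrays and 2.83, 2.85 and 2.91 on the C/EBPbeta-2 arrays, a log2 difference of 0.07 (SE 0.13). The other, 205943_at, ranged from 2.48 to 2.83 and differed by 0.14 (SE 0.15). Neither rose above the median of any array, so no level of TDO2 RNA can be read from them. AFMID, the formamidase that follows both dioxygenases, has 1 probe set, 240318_at, which read 4.96, 5.00 and 4.77 on the control arrays and 4.79, 5.05 and 4.79 on the C/EBPbeta-2 arrays. The groups overlapped across most of their range, with a log2 difference of -0.03 (SE 0.16).

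KMO, the monooxygenase that competes with KYNU for kynurenine and supplies its other substrate, was the only member besides KYNU whose groups did not overlap at a probe set. At 205306_x_at it read 3.46, 3.38 and 3.16 on the control arrays and 4.27, 4.31 and 3.70 on the C/EBPbeta-2 arrays, so it was higher with C/EBPbeta-2 in all pairings, with a gap of 0.24. The log2 difference was 0.76 (SE 0.21), or 1.70-fold, and limma did not call it. All 6 values lay below the array medians, the suffix of the probe set marks probes shared with other transcripts, and with 16 added to each intensity before taking log2 the difference was 0.35.

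The other KMO probe sets did not repeat the separation. At 211138_s_at the control arrays read 3.39, 3.51 and 3.00 and the C/EBPbeta-2 arrays 3.81, 4.12 and 3.37, with a log2 difference of 0.47 (SE 0.25; 0.29 to 0.66 with 1 array left out) and C/EBPbeta-2 replicate 3 inside the control range. At 205307_s_at the values ran from 2.94 to 3.32 with a log2 difference of 0.01 (SE 0.17). All 3 KMO probe sets were below the array medians on every array, unlike the 3 KYNU probe sets that separated the groups, which were above them on every array.

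AADAT, a transaminase that makes kynurenic acid, varied more between arrays than between groups. Its probe set 223593_at read 5.77, 5.26 and 5.53 on the control arrays and 4.89, 6.31 and 5.61 on the C/EBPbeta-2 arrays. Both the lowest and the highest value were C/EBPbeta-2 arrays, and the log2 difference was 0.08 (SE 0.36). It was -0.27 without C/EBPbeta-2 replicate 2 and 0.44 without replicate 1, so AADAT has no settled direction here.

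HAAO, the dioxygenase that acts on the product of KYNU, read 4.78, 5.14 and 4.61 on the control arrays and 4.94, 4.98 and 4.69 on the C/EBPbeta-2 arrays at 205657_at. The C/EBPbeta-2 values lay inside the control range, with a log2 difference of 0.02 (SE 0.19). QPRT, which turns quinolinic acid into the NAD precursor, read 4.23, 4.11 and 4.29 on the control arrays and 4.27, 4.05 and 4.40 on the C/EBPbeta-2 arrays at 242414_at. Its log2 difference was 0.03 (SE 0.16), and that of its other probe set, 204044_at, was 0.06 (SE 0.15) with values from 3.84 to 4.19. Both QPRT probe sets stayed below the array medians throughout.

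**Figure D2:**
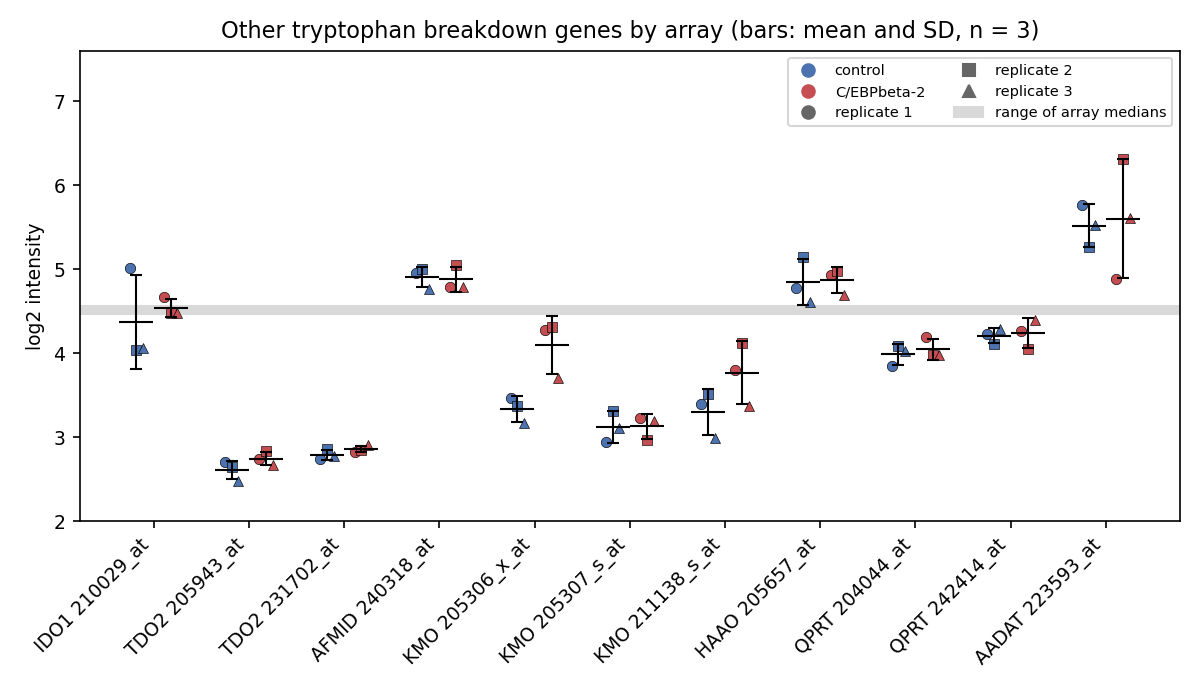
Log2 intensity of the 11 probe sets of the other 7 genes on each array, with control in blue, C/EBPbeta-2 in red, marker shape for the replicate, bars for the mean and SD of 3 arrays, and a grey band for the range of array medians. The groups overlap at every probe set except KMO 205306_x_at, where all red points lie above the blue ones by at least 0.24.

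Among the 15 probe sets, 3 were lower with C/EBPbeta-2 without overlap, all of KYNU, and 1 was higher, of KMO. Over all probe sets 3.75% were lower and 3.87% higher without overlap. The 11 probe sets of the other 7 genes had differences from -0.03 to 0.76, 10 of them above 0, and 7 of the 11 stayed below the median on every array. AFMID, HAAO and AADAT, with 1 probe set each, were above it on all 6. Over the 8 genes at their brightest probe set the median difference was 0.05, against 0.0089 over all genes. KYNU stood alone in size among the members, but it was chosen by this fall and the others were not, so the contrast between them supports nothing. The low signal of most others limits what their differences can show.

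**Figure D3:**
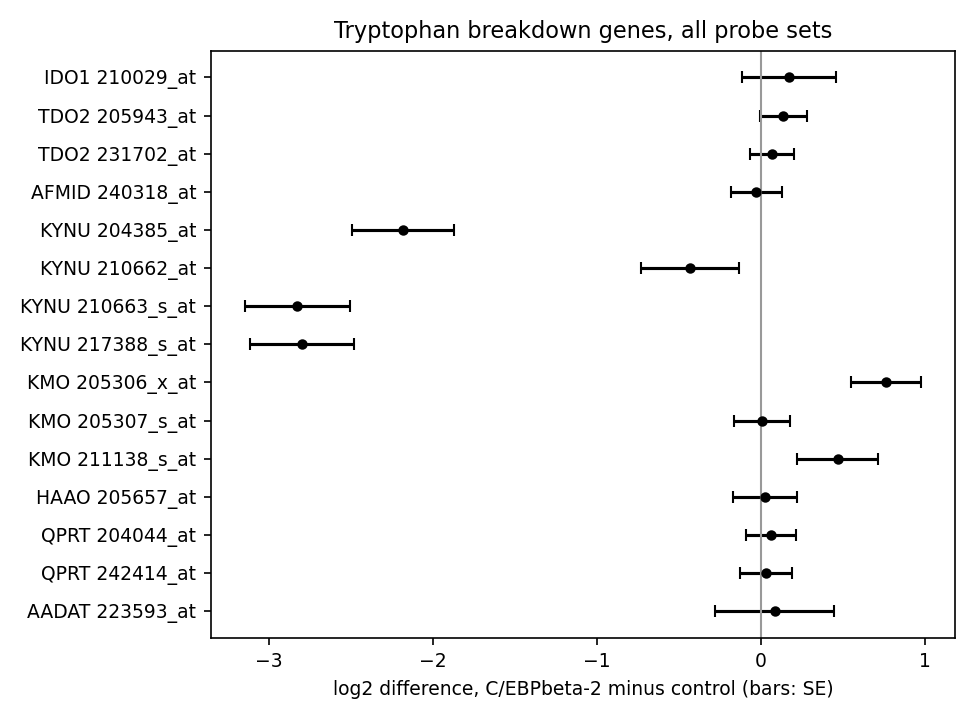
Log2 difference, C/EBPbeta-2 minus control, for the 15 probe sets in the order of the pathway, with bars for the standard error of the limma fit. The 3 bright KYNU probe sets lie between -2.83 and -2.18, and all others lie between -0.43 and 0.76.

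The cell type labels were set against marker lists. All 8 measured epithelial markers were above the array median on all 6 arrays, among them KRT5, KRT18 and EPCAM. Of the 8, 5 had a difference below 0 and 3 above. Limma called 2 of them as lower, where 0.167% of all genes were called in that direction. These were the keratin KRT14 (log2 difference -3.00, adjusted p = 0.0347 by limma) and the adhesion protein CDH1 (-2.14, adjusted p = 0.0282). With the probe sets of CDH1 averaged, its difference was -1.94 and was not called (limma adjusted p = 0.194). Leaving out any 1 array ended the call of CDH1 (adjusted p 0.0617 to 0.167) and leaving out any except C/EBPbeta-2 replicate 2 ended that of KRT14 (0.0905 to 0.219). At an unadjusted p under 0.05 there were 3 of the 8, the third being the laminin chain LAMB3, which differed by 1.17 with groups that overlapped and was not called (limma adjusted p = 0.831). KYNU is also strongly expressed in macrophages, so leukocyte markers were read beside it. Limma called 0 of 11 (1 had an unadjusted p under 0.05), and PTPRC, LYZ, TYROBP, CD163 and MS4A1 lay below the median on every array. CD14, CSF1R and AIF1 lay above it on all 6 arrays. CD14, a receptor of monocytes and macrophages, was the marker with an unadjusted p under 0.05: its values were higher with C/EBPbeta-2 without overlap, by 0.92 (SE 0.20, limma adjusted p = 0.260). The summed intensity of the 11 was 254 to 300.2 on the control arrays and 296 to 346 on the C/EBPbeta-2 arrays, and CD14 alone averaged 71.5 and 135. The fibroblast list was lower in sum, 301 to 493 with C/EBPbeta-2 against 683 to 3636, and this followed DCN, a matrix proteoglycan, which differed by -2.61 (adjusted p = 0.445). Limma called 0 of its 7 genes (1 had an unadjusted p under 0.05), and PDGFRA and LUM lay below the median on every array. The part of these markers in the KYNU difference was not tested. CEBPB, which encodes C/EBPbeta-2, read 11.27, 11.38 and 11.37 on the control arrays and 10.29, 10.50 and 11.38 on the C/EBPbeta-2 arrays at 212501_at, a difference of -0.62 (log2; limma adjusted p = 1.00; -0.95 to -0.40 with 1 array left out), so this probe set does not check the labels.

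Genes around the pathway were taken from lists of transporters, further enzymes, NAD synthesis, the aryl hydrocarbon receptor response and interferon-gamma signalling. Limma called 1 of these 66 measured genes, which fell, and 0 rose, where 0.263% of all genes were called. At an unadjusted p under 0.05 there were 3 of the 66, and 5.4% of all genes. The 66 had a median difference of -0.07, with 44 below 0 and 22 above. In 3 of them all C/EBPbeta-2 arrays were higher than all control arrays and in 2 all were lower, and over all genes 4.62% and 4.01% were.

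**Figure D4:**
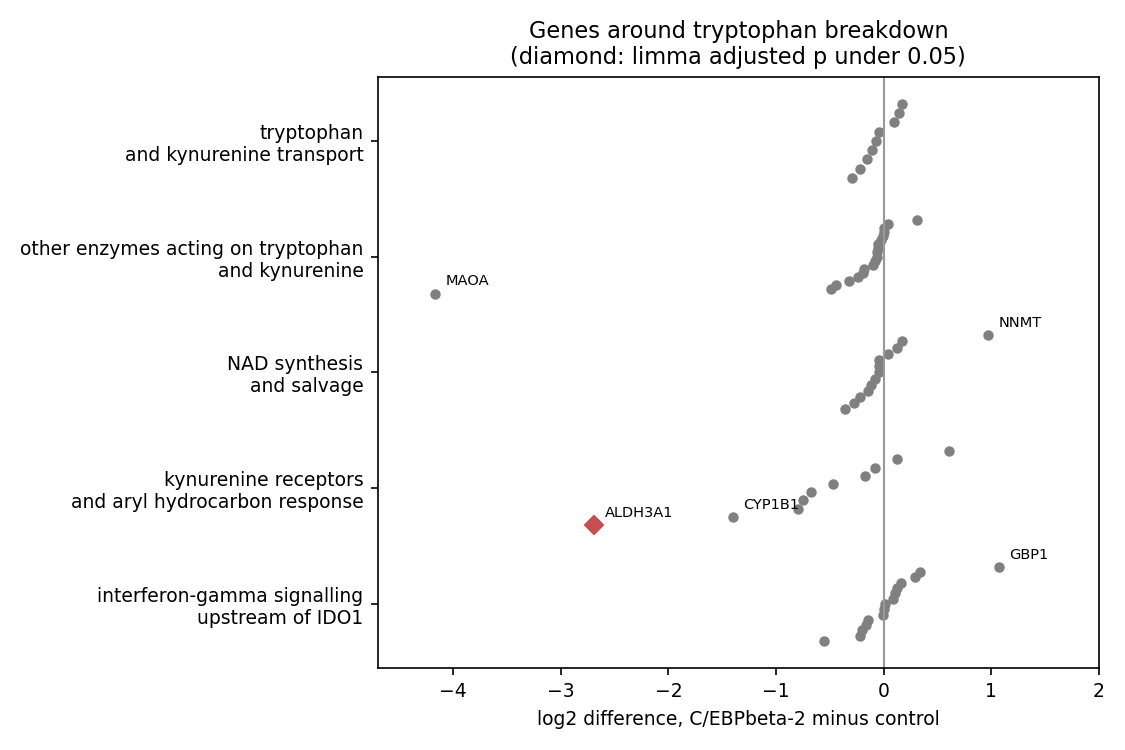
Log2 difference, C/EBPbeta-2 minus control, of the 66 measured genes in 5 lists, each gene a point at its brightest probe set and the called gene a diamond. ALDH3A1 is the only diamond, at -2.69, and MAOA lies furthest to the left, at -4.17.

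The aryl hydrocarbon receptor binds kynurenine and several of its products and switches on genes of xenobiotic metabolism. Its list had the lowest median of the 5, -0.57, against 0.0089 over all genes, and 8 of its 10 genes lay below 0. Of the 10, 1 was called, where 0.263% of all genes were, and receptor activity was not measured. ALDH3A1, an aldehyde dehydrogenase induced through this receptor, read 8.59, 7.78 and 8.48 on control replicates 1 to 3 and 6.21, 5.23 and 5.34 on C/EBPbeta-2 replicates 1 to 3. It fell without overlap, with a log2 difference of -2.69 (SE 0.34, adjusted p = 0.0496 by limma). The call is close to the threshold. It was lost in 10 of 15 alternatives, among them each of the 6 that left out 1 array, and the adjusted p ranged from 0.0095 to 0.277 over the alternatives.

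The receptor itself and the genes most closely tied to it were not called. AHR read 8.65, 6.99 and 8.23 on the control arrays and 6.95, 8.07 and 6.62 on the C/EBPbeta-2 arrays, a log2 difference of -0.75 (SE 0.53), with the groups overlapping. CYP1B1, a cytochrome P450 that the receptor induces, read 9.43, 6.67 and 9.65 on the control arrays and 6.90, 7.12 and 7.53 on the C/EBPbeta-2 arrays, which makes a log2 difference of -1.40 (SE 0.77, limma adjusted p = 1.00). Control replicate 2 was the lowest of the 6, and without it the difference was -2.36 and was called (adjusted p = 0.0411; 0.0411 to 1.00 across all alternatives). CYP1A1, the most widely used readout of this receptor, differed by -0.17 (SE 0.27), its repressor AHRR by -0.80 (SE 0.50; -1.29 to -0.34 with 1 array left out) and TIPARP, another target, by 0.61 (SE 0.33).

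Among 19 further enzymes that act on tryptophan, kynurenine or their products, 0 were called by limma and 1 had an unadjusted p under 0.05. That was MAOA, monoamine oxidase A, which breaks down serotonin made from tryptophan. It read 10.84, 7.89 and 10.71 on the control arrays and 6.01, 5.54 and 5.39 on the C/EBPbeta-2 arrays. All C/EBPbeta-2 arrays were below all control arrays, and control replicate 2 stood far below the other controls. The log2 difference was -4.17 (SE 0.77, adjusted p = 0.171), and without control replicate 2 it was -5.13 and was called (adjusted p = 0.0117; 0.0117 to 0.558 across all alternatives). The kynurenine transaminase KYAT1 differed by -0.44 (SE 0.22) and ALDH8A1, which acts on a branch further along than the HAAO step, by -0.49 (SE 0.23; -0.70 to -0.30 with 1 array left out and -1.03 between the arrays of low spike-in level). The serotonin-making hydroxylases TPH1 and TPH2, the decarboxylase DDC, and IDO2 and ACMSD were among 9 genes of this list that lay below the median on every array.

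NAD synthesis and salvage, which QPRT feeds, held 13 measured genes, of which 0 were called by limma and 1 had an unadjusted p under 0.05. That was NNMT, which methylates nicotinamide and so removes it from salvage. It read 12.21, 11.49 and 11.85 on the control arrays and 12.78, 12.90 and 12.78 on the C/EBPbeta-2 arrays, higher without overlap, with a log2 difference of 0.97 (SE 0.21, adjusted p = 0.265). The salvage enzyme NAMPT differed by -0.22 (SE 0.38). NMNAT3 differed by -0.36 (SE 0.44; 0.15 without control replicate 2) and NADSYN1 by -0.28 (SE 0.40; 0.07 without control replicate 3), so the sign of each changed when that array was left out.

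**Figure D5:**
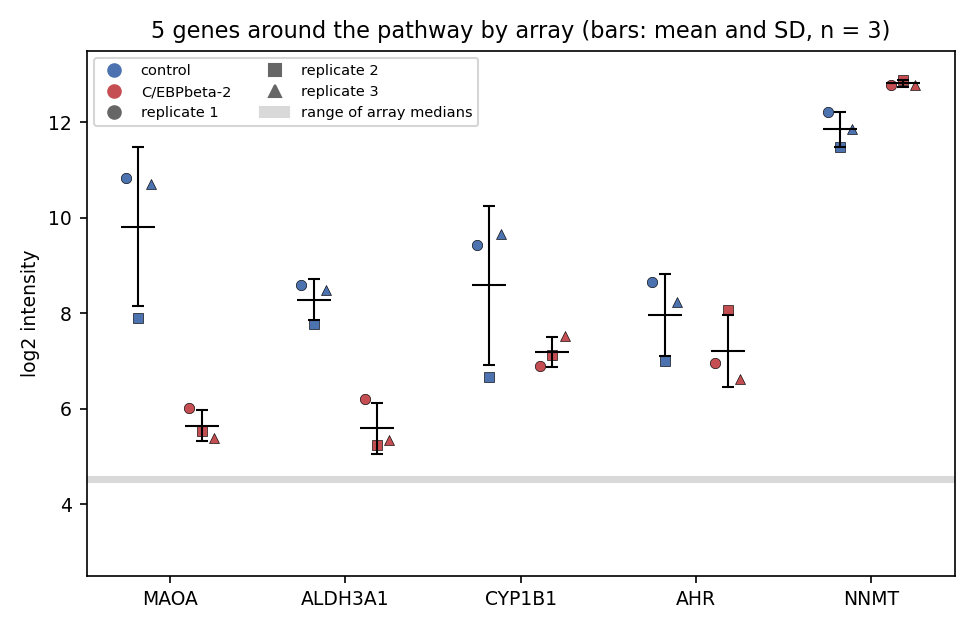
Log2 intensity of MAOA, ALDH3A1, CYP1B1, AHR and NNMT on each array, with control in blue, C/EBPbeta-2 in red, marker shape for the replicate, and bars for the mean and SD of 3 arrays. Control replicate 2 (blue square) lies below the other controls for MAOA (7.89) and CYP1B1 (6.67), and the NNMT groups are separate with C/EBPbeta-2 above.

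Transport and interferon-gamma signalling showed no called gene. Of 9 transporters 0 were called by limma and 0 had an unadjusted p under 0.05. The amino acid exchanger that brings tryptophan and kynurenine into cells is made of SLC7A5, which differed by -0.22 (SE 0.24), and SLC3A2, which differed by -0.29 (SE 0.35). Both differences were 0.01 without control replicate 3. The organic anion transporter SLC22A6 differed by 0.17 (SE 0.29; -0.14 without C/EBPbeta-2 replicate 1). Of 15 genes of interferon-gamma signalling 0 were called by limma, 0 had an unadjusted p under 0.05, and the list's median difference was 0.0093. GBP1, a guanylate-binding protein induced by interferon, differed by 1.07 (SE 0.64; 0.52 to 1.65 with 1 array left out), the receptor chain IFNGR1 by -0.55 (SE 0.37; -0.98 to -0.30 with 1 array left out) and the factor IRF1 by 0.34 (SE 0.16). IFNG, CXCL10 and CXCL11 lay below the median on every array, as did TDO2, KMO and QPRT of the breakdown route.

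The genes whose pattern over the 6 arrays was most like that of KYNU (217388_s_at) were found by Pearson's r against 19774 other genes. They were COL4A6, a chain of basement membrane collagen (r = 0.994), CDH1, the adhesion protein E-cadherin (0.993), SFRP1, a secreted Wnt antagonist (0.982), LOXL1-AS1 (0.980) and EVPLL (0.980). COL4A6 read 9.02, 8.92 and 8.89 on the control arrays and 6.68, 6.59 and 6.06 on the C/EBPbeta-2 arrays, with replicate 3 lowest in each group, as for KYNU. LOXL1-AS1 lay below the array medians throughout. The 6 points share their libraries and fall into the 2 groups, so r is a description that mostly reflects the difference between groups.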

How the data were processed

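Each array's deposited column holds 1 intensity per probe set, on a linear scale from 4.17 to 17825. The submitters' processing notes name RMA with no version or settings. Arrays were grouped by their titles. Intensities were taken to log2 with no pseudocount or further normalization. Of 54675 probe sets, 62 manufacturer's controls were set aside. The annotation gave 1 symbol to 41091, several to 1801 (not named) and none to 11721, and 41037 of the 41091 matched RefSeq gene IDs. List genes without a probe set of their own, including all 3 of a pyridoxal phosphate list, were not analysed here.

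C/EBPbeta-2 minus control was fitted with limma 3.58.1 (lmFit, eBayes) in R 4.3.3 over all 6 arrays, two-sided, no covariate, with Benjamini-Hochberg adjustment over 54613 probe sets or, for 1 brightest probe set a gene, over 19775 genes. The fit was also run on simulated data with independent noise on each array. Deviations shared between arrays were not simulated, so that run supports no call made here. Precision is limited by 3 arrays a group.

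Named were all probe sets of the 8 members, called list genes and otherwise the 3 largest differences of a list, the 5 genes most like KYNU, CEBPB, and markers. AHR, CYP1A1, TIPARP, NAMPT and genes below the array medians were named after their values were seen. Members and lists were chosen with earlier results of these data known. A planned list is not reported here. Alternatives left out each array, added a replicate block or a spike-in covariate, renormalized, centred, filtered dim probe sets, changed the variance prior, weighted arrays, added 16 to intensities, or averaged probe sets. Python 3.11.15, pandas 2.3.3, numpy 2.4.6 and matplotlib 3.10.9 were used.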

Additional observations from a re-analysis of the deposited data

How the results depend on the processing

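The KYNU difference ranged from -2.99 to -2.06 over the 17 alternatives, the latter for the mean of its 4 probe sets. It was -2.99 to -2.44 with 1 array left out. KYNU was chosen by this fall, and its groups did not overlap at its brightest probe set. The sign of its difference was thereby fixed with arrays left out or split by spike-in level, and supports nothing. Its call over genes was lost with a replicate block (-2.80) and with 16 added to the intensities (-2.71). The number of called probe sets, 36, was 5 to 37 with 1 array left out, 0 with a replicate block, 78 among probe sets above the median intensity only, 67 with a trended and robust prior, 122 with array weights and 17 with 16 added. The number of called genes, 52, was 7 to 57 with 1 array left out, 0 with a replicate block, 122 with array weights and 17 with 16 added. Of the genes in the lists around the pathway, 0 to 2 were called with 1 array left out, 0 with a replicate block, with each array centred on its median, with 16 added or with the spike-in covariate, and 2 with array weights, against 1. The limma fit with a replicate block still had 1701 probe sets and 847 genes at an unadjusted p under 0.05. The replicate block paired arrays by number, and their deviations from the group means correlated at -0.45, -0.55 and 0.42 between arrays of the same number. The correlation was 0.66 between C/EBPbeta-2 replicate 2 and control replicate 1. It was 0.64 between C/EBPbeta-2 replicate 1 and control replicate 2. Arrays may therefore pair across the groups under other numbers, and a block of that kind was not tested. With 1 array left out, the differences of SLC3A2 (-0.49 to 0.013), SLC7A5 (-0.40 to 0.0099), SLC22A6 (-0.14 to 0.37), NMNAT3 (-0.70 to 0.15) and NADSYN1 (-0.60 to 0.071) changed sign. The cause of these changes was not tested. No detection calls were used here, so probe sets under the array medians, 8 of the 15, have no stated background.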
